A study of Mus musculus with 6 samples.

Results

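The integrin subunit genes of alveolar macrophages (AMs), the macrophages of the lung airspace, were followed here through 10 members: Itgax, Itgam, Itgal, Itgb2, Itgav, Itgb1, Itga4, Itgb7, Itgb5 and Itgb8. They were taken by name, with no threshold on a measured value, and all 10 were found among the 24341 genes of the deposited expression table. RNA was sequenced from AMs in the bronchoalveolar lavage (BAL) of C57BL/6 female mice, 6 to 10 weeks of age, that were either CD44+/+ (3 samples) or CD44-/- (3 samples). The animals were naive and the lavage cells were not sorted. Each sample was a pool, of 4 mice for 1 sample of a genotype and of 2 mice for each of the others, so an n of 3 stands for 3 pools. The larger pool comes first where the pools are listed, so that pool size may go with the replicate number in both genotypes, and its part in values that set replicate 1 apart was not tested. Every value is an FPKM, the number of fragments of a transcript scaled to its length and to all mapped fragments of the sample, which allows levels of different genes to be set side by side. The allele behind the CD44-/- genotype is not described in the sources used here. CD44-/- is a genotype of the whole mouse and not of AMs alone, which limits these mice as a model of the macrophage itself.

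Integrins are surface receptors made of 1 α and 1 β chain, and they hold cells to other cells and to the extracellular matrix. The β2 chain (Itgb2, CD18) is found on leukocytes and pairs with αL (Itgal), αM (Itgam), αX (Itgax) and αD (Itgad). Mature AMs are known for a surface rich in CD11c, the αX chain, and poor in CD11b, the αM chain. The αv chain pairs with several β chains and binds proteins that carry the RGD motif, among them vitronectin and the latent form of TGFβ, and α4 pairs with β1 or β7 and binds VCAM-1 and fibronectin.

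Cd44, the targeted gene, had 540, 535 and 527 FPKM in CD44+/+ AMs and 54.7, 54.5 and 51.4 FPKM in CD44-/- AMs, so the measured values follow the labels. The AM markers Siglecf (243 to 268 FPKM) and Mrc1 (493 to 535 FPKM) were high in all 6 samples. Of the 10 markers on the AM list, none had an adjusted p under 0.05. An unadjusted p under 0.05 was found for 2, both lower in CD44-/- AMs, beside 7.69% of all tested genes. Values of 3, Mrc1 among them, were lower in CD44-/- AMs without overlap between genotypes. Overlap was lacking for 11.6% of all tested genes, in either direction. Sequencing depth, known only relative to CD44+/+ replicate 1, lay between 0.811 and 1.05, and absolute depth is unknown. Of the 10800 genes averaging 0.5 FPKM or more, 12 differed between genotypes at an adjusted p under 0.05 (limma on log2(FPKM + 0.1), two-sided, Benjamini-Hochberg), which is 0.111%. None of the integrin genes was among them. Nothing in the labels says that pools were collected on separate days, so the p-values measure the spread between these pools.

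The genes for αL, αM and αX lie close together on chromosome 7 of the mouse genome mm10. Itgal spans 127296260 to 127335137, Itgam 128062640 to 128118491 and Itgax 128129568 to 128150657, and Itgad follows Itgax on the same strand. Itgax and Itgam are neighbours with very different levels, with Itgax 236 to 475 times as high as Itgam within a sample. Sequence upstream of both genes, on the plus strand of GRCm38.p6 from RefSeq, is given to let these neighbours be compared. It comes from windows of the 250 bases before 1 annotated transcript start, printed up to the base before the gene's first RefSeq start (chr7:128129300-128129525 for Itgax, which leaves out 24 bases of its window, and chr7:128062390-128062639 for Itgam). Capitals mark GAGGAA or its reverse complement TTCCTC, letters found in sites of PU.1, a transcription factor of myeloid cells.
Itgax: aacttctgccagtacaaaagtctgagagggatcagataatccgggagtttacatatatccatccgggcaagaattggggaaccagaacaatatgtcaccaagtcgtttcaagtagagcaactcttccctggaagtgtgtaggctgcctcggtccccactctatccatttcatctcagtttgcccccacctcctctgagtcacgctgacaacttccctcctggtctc
Itgam: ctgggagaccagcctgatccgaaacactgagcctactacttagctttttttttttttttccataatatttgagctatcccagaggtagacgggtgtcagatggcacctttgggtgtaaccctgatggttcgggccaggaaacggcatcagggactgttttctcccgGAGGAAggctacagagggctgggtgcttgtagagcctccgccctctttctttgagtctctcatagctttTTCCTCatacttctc
The Itgam window held these letters 2 times, beginning 84 and 15 bases before the start, and the whole Itgax window held none. Among the 32851 RefSeq windows of this length, 23.3% held the letters on one strand or the other. The table of windows matched 8 of the 10 integrin genes, and 3 of the 8 held the letters (Itgam, Itgav and Itgb1). A match is a description of the sequence and was not tied to binding.

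**Figure D1:**
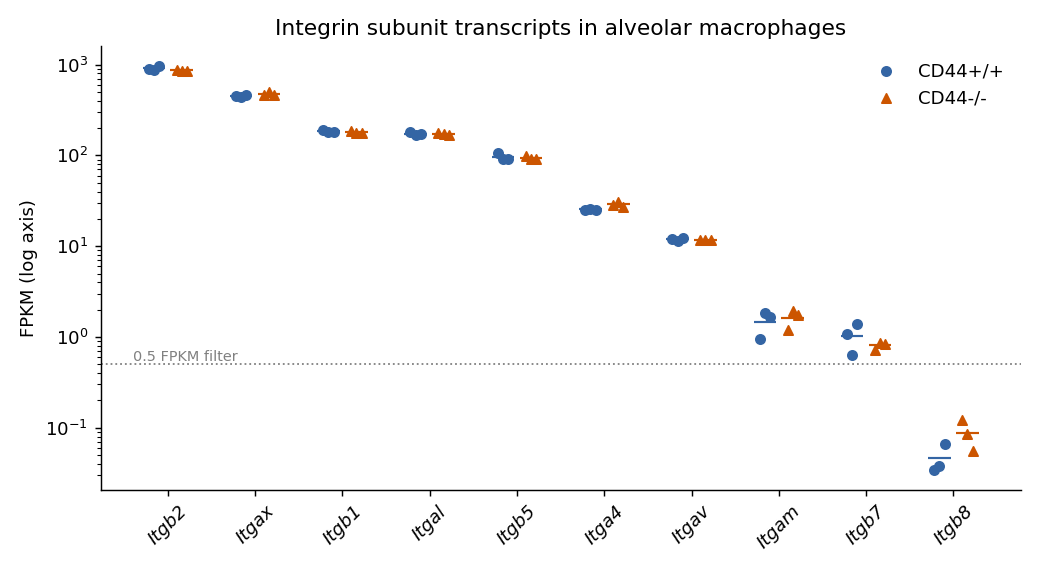
FPKM (log axis) of the 10 integrin genes in each of the 3 CD44+/+ (blue circles) and 3 CD44-/- (orange triangles) AM samples, with a line at each mean and a dotted line at the 0.5 FPKM filter. Levels run from 861 to 964 FPKM for Itgb2 down to 0.0346 to 0.123 FPKM for Itgb8, and the genotypes lie close together for every gene above 10 FPKM.

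Levels of the 10 genes ranged over more than 4 decades, and their order was nearly the same in every sample. By mean FPKM the order was Itgb2 (893), Itgax (463.5), Itgb1 (181), Itgal (173), Itgb5 (94.95), Itga4 (27.2), Itgav (11.8), Itgam (1.55), Itgb7 (0.922) and Itgb8 (0.0668). Itgb2 ranked 48th and Itgax 136th of 24340 genes with complete values. Of the 9 neighbouring pairs in this order, 7 had ranges that did not touch over the 6 samples. The ranges of Itgb1 (176 to 191 FPKM) and Itgal (169 to 179.6 FPKM) overlapped, although Itgb1 was above Itgal in 6 of 6 samples. Itgam and Itgb7 also overlapped, and Itgam was the higher of the pair in 5 of 6 samples.

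The β2 chain and its partners made up most integrin RNA. Among the 18 α genes measured, Itgax alone held 62.0% to 64.1% of the summed FPKM in each sample and Itgal 22.4% to 24.4%. Itgam held 0.130% to 0.264%, which was less than Itga5, Itga4, Itgav, Itga6, Itgad or Itga1. Among the 9 β genes, Itgb2 held 75.2% to 77.9%, Itgb1 14.6% to 15.9% and Itgb5 7.39% to 8.88%. The members together carried 96.8% to 97.3% of all integrin FPKM.

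**Figure D2:**
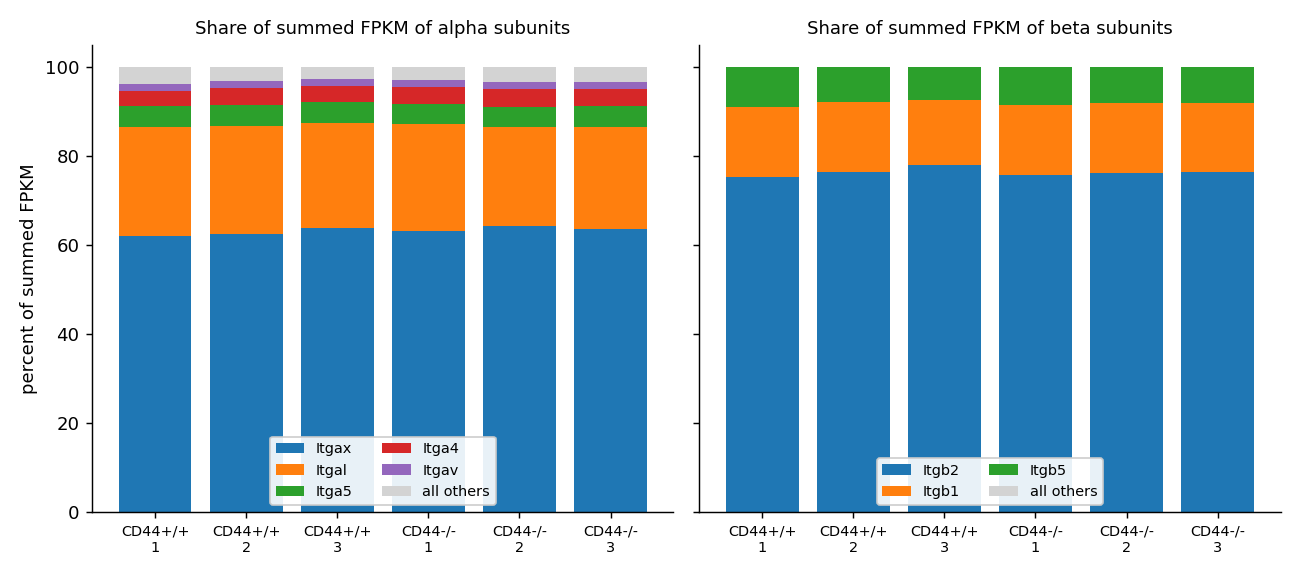
Share of the summed FPKM of the 18 α genes (left) and of the 9 β genes (right) taken by each named gene in each AM sample, as stacked bars that add up to all of it. Itgax takes 62.0% to 64.1% of the α sum and Itgb2 75.2% to 77.9% of the β sum, and no sample of either genotype departs from this layout.

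Itgax encodes αX, the CD11c chain by which AMs are gated in flow cytometry. It was measured at 456, 435 and 460 FPKM in CD44+/+ AMs and at 469, 495 and 466 FPKM in CD44-/- AMs. Each CD44-/- sample was above each CD44+/+ sample, with the lowest of the former at 466 FPKM and the highest of the latter at 460 FPKM. The means were 450.3 ± 13.4 and 477 ± 15.9 FPKM (SD, n = 3 each). On the log2 scale the difference was 0.08 ± 0.05 (SE) and did not pass the test (adjusted p = 0.809), and its 95% interval reached from 0.979-fold to 1.14-fold. In a bulk sample, a change in the number of cells that carry a transcript and a change in RNA per cell cannot be told apart.

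Itgb2, the shared β chain, had 905, 882 and 964 FPKM in CD44+/+ AMs and 884, 862 and 861 FPKM in CD44-/- AMs. The highest 2 values, 964 and 905, belonged to CD44+/+ samples, and the genotypes overlapped. It changed by -0.08 ± 0.05 (SE) on the log2 scale, with adjusted p = 0.850 and a 95% interval from 0.874-fold to 1.03-fold. Itgal, which encodes the αL chain of the ICAM receptor LFA-1, had 179.6, 169.6 and 170.4 FPKM against 178, 173 and 169 FPKM. Its values of the genotypes were interleaved, and the log2 change was 0.0018 ± 0.05 (SE) with adjusted p = 0.998 and an interval from 0.929-fold to 1.08-fold. The sign of a value this small has no weight, and it turned with median-ratio scaling (-0.0129) and quantile normalization (-0.0161).

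Itgam encodes αM, the CD11b chain of complement receptor 3, which is high on monocytes and neutrophils. It had 0.960, 1.84 and 1.64 FPKM in CD44+/+ AMs and 1.19, 1.93 and 1.72 FPKM in CD44-/- AMs. The lowest value of each genotype was that of replicate 1, and the genotypes overlapped. The log2 change, 0.14 ± 0.26 (SE) with adjusted p = 0.971, had a wide interval, from 0.725-fold to 1.67-fold, and turned to -0.13 without CD44+/+ replicate 1. In same-numbered samples, CD44-/- was the higher in 3 of 3 pairs. The summed FPKM of 5 neutrophil markers was also lowest in replicate 1 of each genotype. It was 33.6, 79.4 and 65.4 in CD44+/+ samples and 45.8, 52.7 and 50.1 in CD44-/- samples, and S100a8 and S100a9 made up most of it, with S100a9 at 0.493 and 1.80 FPKM in replicates 1. Cxcr2 on the same list was instead highest in replicate 1 of each genotype (3.97 and 4.56 FPKM), and Csf3r was lowest in CD44+/+ replicate 3 (9.32 FPKM) and CD44-/- replicate 1 (12.97 FPKM). Csf3r was also higher in CD44-/- AMs without overlap (log2 change 0.33, unadjusted p = 0.0176, adjusted p = 0.499). Of the 5 neutrophil markers, 1 had an unadjusted p under 0.05, beside 7.69% of all tested genes. With the replicate block 3 had one, beside 1049 of the 10800 tested genes. The part of neutrophils in the Itgam values was not tested. In the GENCODE annotation of mm10, 66.7% of stretches of 42 bases, the read length, in Itgam transcripts recur in transcripts of another gene model, Gm49368, whose exons overlap those of Itgam on the same strand. That model is no gene identifier of the deposited table, and whether reads were shared out to it was not tested. For the other 9 members this share was between 0% and 9.02%.

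Itga4 had the smallest p of the tested members. It encodes α4, which with β1 forms VLA-4, a receptor for VCAM-1 and fibronectin. CD44+/+ AMs had 25.3, 25.8 and 25.3 FPKM, and CD44-/- AMs had 28.4, 31.0 and 27.3 FPKM. The CD44+/+ values were nearly equal, and all CD44-/- values lay above them. The mean went from 25.5 ± 0.289 to 28.9 ± 1.90 FPKM (SD, n = 3 each), a log2 change of 0.18 ± 0.06 (SE) with a 95% interval from 1.03-fold to 1.25-fold. Its unadjusted p was 0.0175, and the adjusted p of 0.499 did not pass, so the difference is not established over all genes tested. The unadjusted p rose to 0.0745 without CD44-/- replicate 2, which had the highest Itga4 value.

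Itga4 was the single member of the 9 tested with an unadjusted p under 0.05, while 7.69% of all tested genes had one. Values of the genotypes did not overlap for 2 of the 9, Itga4 and Itgax, and for 11.6% of all tested genes. With 1 gene fewer, either count would be a smaller share of the members than that of all genes. Within same-numbered pairs, Itgax, Itgam and Itga4 were higher and Itgb2, Itgb1 and Itgb5 lower in CD44-/- AMs in 3 of 3 pairs, which makes 6 of the 9 with a single direction, beside 29.8% of all tested genes. The median log2 fold change of the 9 was -0.03, beside 0.01 over all genes tested. Positive log2 fold changes were seen in 4 of the 9 and in 55.8% of all tested genes, and in 3 of the 9 after median-ratio scaling or quantile normalization, where Itgal changed sign and the shares of all tested genes were 49.4% and 48.1%.

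Itga4 (79255426 to 79428988) and Itgav (83724397 to 83806917) lie on chromosome 2, as does Cd44 (102811142 to 102901665). Of 862 tested genes on chromosome 2, 9.28% had an unadjusted p under 0.05, against 7.56% of those on other chromosomes, and 13.3% against 11.5% had genotypes without overlap. The part of the shared chromosome in the Itga4 values was not tested. The Itga4 position in the deposited table runs past the gene into Cerkl, a gene on the opposite strand that overlaps 8.04% of the exonic bases of Itga4 in GENCODE. Cerkl had a mean of 0.896 FPKM, and whether the authors' quantification used the strand of the reads is not given in the sources used here.

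Some markers of monocytes and interstitial macrophages were higher in CD44-/- AMs, as Itga4 was, without passing the test. Of the 7 genes used from that list 5 were tested, and none had an adjusted p under 0.05. C1qa, C1qc and Ms4a7 were higher with an unadjusted p under 0.05, as were 4.75% of all tested genes. With the replicate block C1qb joined them (4 of 5), and 653 of the 10800 tested genes were then higher at that threshold. Ccr2, C1qb, Cx3cr1 and Ly6c2 overlapped between genotypes. The summed FPKM of the 7 was 14.8 to 16.6 in CD44+/+ samples and 19.5 to 21.0 in CD44-/- samples. The monocyte gene Ly6c2 was at most 0.263 FPKM in CD44+/+ and 0.0984 FPKM in CD44-/- samples, and was listed at 0 in CD44-/- replicate 1. Their part in the Itga4 result was not tested.

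Itgb1, the β chain that α4, α5, α6 and αv share, was measured at 191, 179 and 181 FPKM in CD44+/+ AMs and 184, 177 and 176 FPKM in CD44-/- AMs. One CD44+/+ sample was highest and the others were interleaved. The change on the log2 scale was -0.04 ± 0.05 (SE), with adjusted p = 0.959 and an interval from 0.904-fold to 1.05-fold. Itgb7, which joins α4 in the receptor for the gut addressin MAdCAM-1 and αE (Itgae) in that for E-cadherin, was near the filter with 1.07, 0.638 and 1.40 FPKM against 0.719, 0.869 and 0.836 FPKM. The CD44+/+ values covered the whole CD44-/- range, which was the narrower of them. Its log2 change of -0.27 ± 0.27 (SE), for which adjusted p = 0.936, moved between -0.04 without CD44+/+ replicate 3 and -0.55 without CD44+/+ replicate 2. Without that second sample its unadjusted p was 0.0366.

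The αv gene Itgav had 12, 11.4 and 12.3 FPKM in CD44+/+ AMs and 11.7, 11.7 and 11.6 FPKM in CD44-/- AMs. All CD44-/- values fell inside the CD44+/+ range, and on the log2 scale they differed by -0.03 ± 0.06 (SE), with adjusted p = 0.974 and an interval from 0.889-fold to 1.08-fold. Itgb5 pairs with αv in a receptor for vitronectin and for MFG-E8, a bridge to apoptotic cells. It had 107, 91.3 and 91.4 FPKM against 98.4, 91.0 and 90.7 FPKM, and replicate 1 was the highest of each genotype. Its log2 change was -0.04 ± 0.07 (SE) with adjusted p = 0.970, and it was 0.03 without CD44+/+ replicate 1.

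Itgb8 pairs with αv in a receptor that activates latent TGFβ. It had 0.0346, 0.0376 and 0.0657 FPKM in CD44+/+ AMs and 0.123, 0.085 and 0.055 FPKM in CD44-/- AMs, with overlap. These levels are below the filter and, but for 1 sample, below the 0.1 added before the log, so Itgb8 was the member that was not tested. With no filter on low values its log2 change was 0.35 ± 0.17 (SE), with an unadjusted p of 0.0942. The other partners of αv, Itgb3 and Itgb6, stayed under 0.1 FPKM, so that Itgb1 and Itgb5 were the αv partners above the filter.

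**Figure D3:**
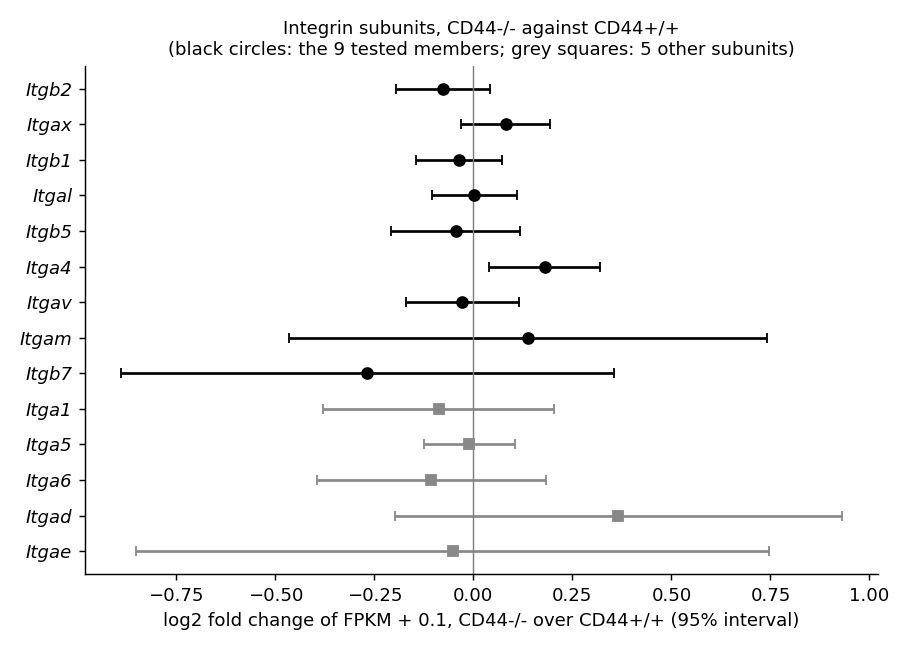
Log2 fold change of FPKM + 0.1, CD44-/- over CD44+/+ AMs, with its 95% interval from limma, for the 9 tested members (black circles) and 5 other integrin subunits above the filter (grey squares). The interval leaves out 0 for Itga4 alone (1.03-fold to 1.25-fold, adjusted p = 0.499), and those of Itgam and Itgb7 are several times as wide as those of the members above 10 FPKM.

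Members above and below 10 FPKM differed in precision. The 7 members above 10 FPKM had coefficients of variation within a genotype of 0.495% to 9.29%, and the farthest bound of any of their 95% intervals was 0.32 on the log2 scale. For Itgam and Itgb7, the coefficients were 9.76% to 36.9% and the farthest bound was 0.89.

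Since α and β chains pair 1 to 1 at the surface, ratios within a sample were compared, in which depth cancels. Of 11 ratios and shares, 4 did not overlap between genotypes. They have Itgax, Itgb2 or Itgav in common, so they are not 4 separate observations. With 3 samples against 3, the smallest p of the exact two-sided permutation test is 0.1, which these 4 reached (adjusted p = 0.275 over the 11). The ratio of Itgax to Itgb2 was 0.504, 0.493 and 0.477 in CD44+/+ AMs and 0.531, 0.574 and 0.541 in CD44-/- AMs. It was thus above 0.53 in all CD44-/- samples and at most 0.504 in the others. Neither gene passed the test alone, the ratio did not pass its own, and Itgax by itself did not overlap either. The sum of Itgax, Itgam and Itgal over Itgb2 was 0.682 ± 0.0243 against 0.750 ± 0.0239 (SD, n = 3 each), again without overlap. With Itgad added to the sum, a choice made after the values were seen, it was 0.691 ± 0.0270 and 0.762 ± 0.0270 (SD, n = 3 each). The sum of Itgav, Itga4, Itga1, Itga5 and Itga6 over Itgb1, added at the same stage, was 0.458 ± 0.00762 and 0.482 ± 0.0164 (SD, n = 3 each) and overlapped between genotypes.

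The ratio of Itga4 to Itgav was 2.11, 2.26 and 2.06 in CD44+/+ AMs and 2.43, 2.65 and 2.35 in CD44-/- AMs. Itgav took 1.63%, 1.63% and 1.70% of the summed α FPKM in CD44+/+ AMs and 1.58%, 1.52% and 1.58% in CD44-/- AMs. The α sum itself was 698 to 736 FPKM in CD44+/+ samples and 734 to 772 FPKM in CD44-/- samples, which overlapped. The share of Itgax in the α sum (62.7% ± 0.933 and 63.6% ± 0.489, SD, n = 3 each) and that of Itgb2 in the β sum (76.5% ± 1.35 and 76.1% ± 0.304) overlapped between genotypes. So did the ratios of Itgax to Itgam, Itgax to Itgal, Itgb7 to Itgb1 and Itgb5 to Itgb8, and the share of Itgb1.

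**Figure D4:**
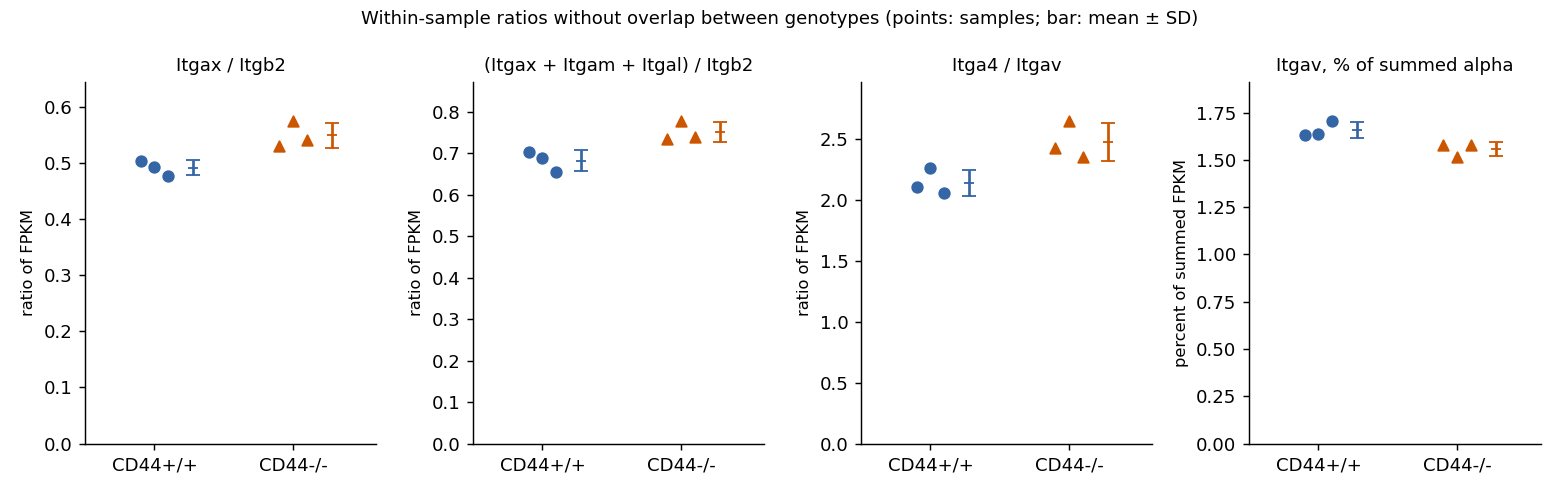
The 4 of 11 within-sample ratios and shares whose values did not overlap between genotypes, shown for that reason, with each AM sample as a point and the mean ± SD beside it. Itgax over Itgb2 is 0.477 to 0.504 in the CD44+/+ samples and 0.531 to 0.574 in the CD44-/- samples, and p = 0.1 is the smallest that the exact permutation test can give.

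The rest of the integrin family was sparse. Of the 17 other subunits, 5 averaged 0.5 FPKM or more, and with all samples none of the 5 had an unadjusted or adjusted p under 0.05. Itga5, the fibronectin receptor chain, had 34.3 ± 0.666 and 34.1 ± 0.917 FPKM (SD, n = 3 each). Itga6 (9.43 and 8.69 FPKM) and Itga1 (3.01 and 2.82 FPKM), chains of laminin and collagen receptors, had log2 fold changes of -0.11 and -0.09, and Itgae one of -0.05. Itgad had 11.2, 6.89 and 6.28 FPKM in CD44+/+ AMs and 7.48, 13.2 and 10.6 FPKM in CD44-/- AMs, a log2 change of 0.37 ± 0.25 (SE) with adjusted p = 0.850. It was 0.62 without CD44+/+ replicate 1 (unadjusted p = 0.0183), 0.58 without CD44-/- replicate 1 (unadjusted p also under 0.05), 0.21 without CD44+/+ replicate 3 and 0.18 without CD44-/- replicate 2. Itga6 was -0.25 without CD44+/+ replicate 3, with an unadjusted p of 0.0364. For Itgad, 22.2% of stretches of 42 bases recur in transcripts of other genes, and Itgax is the one that shares most. Whether reads were shared out between Itgad and Itgax was not tested. For Itgax, 9.02% of stretches recur in Itgad.

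Of 33 genes that regulate integrins, tie them to actin or lie beside them in the membrane, 26 were tested. None of the 26 had an unadjusted p under 0.05, beside 7.69% of all tested genes. With the replicate block 1 had one, Zyx, at 0.0201 (adjusted p = 0.403), beside 1049 of the 10800 tested genes. Talin (Tln1, 103.3 ± 7.61 and 104 ± 3.06 FPKM) and kindlin-3 (Fermt3, 111 ± 6.24 and 111.3 ± 2.31 FPKM, SD, n = 3 each), which bind β tails to activate them, had log2 fold changes of 0.01 each, which turned to -0.01 with median-ratio scaling. The smallest p-values of the list were those of Vcl (vinculin, log2 fold change 0.37, adjusted p = 0.685), Zyx (0.20), Cyth1 (0.09) and Ilk (-0.07). Without CD44+/+ replicate 1, Vcl was 0.52 and Zyx 0.33, and without CD44+/+ replicate 2 they were 0.22 and 0.12. Vcl and Zyx each had an unadjusted p under 0.05 in 2 of 15 alternative settings, Cyth1 in 1 and Ilk in 0. The median of the 26 was -0.0044 on the log2 scale.

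Among 23 ligands and carriers of latent TGFβ, 12 were tested and 1 passed. An unadjusted p under 0.05 was found for 5 of the 12, with 1 higher and 4 lower in CD44-/- AMs, beside 7.69% of all tested genes. Mfge8, the αvβ5 ligand named above, had 10.6 ± 0.426 and 17.6 ± 1.98 FPKM (SD, n = 3 each) and rose with a log2 fold change of 0.72 (adjusted p = 0.0328, and 0.102 with the replicate block), while its receptor genes Itgav and Itgb5 did not pass. Its adjusted p was 0.112 to 0.269 when CD44+/+ replicate 2 or 3 or CD44-/- replicate 2 or 3 was left out. Fibronectin (Fn1, log2 fold change -0.46, adjusted p = 0.427), osteopontin (Spp1, -0.29, 0.476) and Adam15 (-0.18, 0.499) had lower values in each CD44-/- sample than in each CD44+/+ sample without passing the test. Cdh1 (E-cadherin), named with Thbs1 and Tgfb2 after the values were seen, had a log2 change of -0.28 (unadjusted p = 0.0321, adjusted p = 0.581) and overlapped. Thbs1 was higher without overlap (0.232 to 0.654 against 0.663 to 0.895 FPKM, adjusted p = 0.747), so that 5 of the 12 did not overlap, beside 11.6% of all genes. Tgfb2 had 3.07, 2.29 and 1.95 FPKM against 1.27, 2.05 and 1.83 FPKM (log2 change -0.48, adjusted p = 0.665) and overlapped. Tgfb1, whose latent product αv integrins activate, had a log2 fold change of -0.01, and its carrier on macrophages, Nrros, of -0.07 (adjusted p = 0.941). The median over the 12 was -0.07, with 2 positive and 10 negative values.

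Transcripts listed as markers of other cells were measured in all samples, and the cells they came from were not tested. Markers of airway secretory cells summed to 811 to 1333 FPKM in CD44+/+ samples and 619.5 to 1044 FPKM in CD44-/- samples, and those of alveolar type 2 cells to 13.2 to 23.0 and 19.5 to 89.9 FPKM. Of the 4 tested type 2 markers, Sftpc (log2 change 1.44) and Sftpb (1.24, no overlap) were higher in CD44-/- AMs with an unadjusted p under 0.05. The same held for 4.75% of all tested genes. With the replicate block 3 of the 4 had an unadjusted p under 0.05, beside 1049 of the 10800 tested genes. Sftpc had 22.8, 12.4 and 74.2 FPKM in CD44-/- samples against 6.83 to 15.5 FPKM, and its log2 change was 0.73 without CD44-/- replicate 3. The 7 markers of T and NK cells summed to 278 to 312 and 294 to 317 FPKM, of which Cd2, listed among them, had 277 to 316 FPKM, while the T cell gene Cd3e was at most 0.286 FPKM. Klrb1c of NK cells was at most 0.0897 FPKM and the 5 B cell markers summed to at most 0.588 FPKM. Dendritic cell markers summed to 3.06 to 6.45 and 4.28 to 9.78 FPKM, those of platelets to 1.75 to 4.31 and 2.17 to 4.76 FPKM, and erythroid markers to 2.12 to 17.3 and 2.89 to 56.5 FPKM. None of these lists had a member with an adjusted p under 0.05, and their part in the integrin values was not tested.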

How the data were processed

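RNA was measured in AMs of 3 CD44+/+ and 3 CD44-/- samples, grouped and numbered by their titles in the labels. The authors mapped the reads to mm10 with STAR, and the FPKM values of 24341 genes that they deposited were made with Cufflinks. The annotation is not given in the sources used here. Cuffdiff results and pooled means in the deposited table were not used. Its columns of gene names and positions are sorted differently from its identifiers and values, so positions were looked up by gene name (start counted from base 1). No column of a sample was left unused, and 1 gene with a missing value was dropped.

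Genes averaging 0.5 FPKM or more were compared on log2(FPKM + 0.1) with limma 3.58.1 in R 4.3.3 (eBayes with an intensity trend, two-sided, Benjamini-Hochberg over all genes tested). Fold changes are on this scale, which understates those of low genes. The fit was tested on simulated data. Ratios within samples were compared by exact two-sided permutation. Fragment numbers are unknown, so no counting interval was given, and relative depth came from the smallest steps between low values. Same-numbered samples were treated as pairs in an alternative, since their deviations from the group means correlated (0.212, 0.132 and 0.211 for replicates 1, 2 and 3), although the labels do not say that they were collected together. Members and gene lists were chosen with earlier results of these data known. Named genes were the 10 members, Cd44, other integrin subunits of at least 0.5 FPKM, the 4 genes of smallest p in the lists of regulators and partners and of ligands, Tgfb1, Nrros and Mfge8. Tln1, Fermt3, Cerkl, Cdh1, Thbs1, Tgfb2 and single markers were named after their values were seen. Hba-a1 and Ly6g of the marker lists were not used here, and 1 further marker is not reported here. Exon overlaps and shared stretches came from GENCODE vM21.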

Additional observations from a re-analysis of the deposited data

How the results depend on the processing

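The comparison was repeated with quantile or median-ratio scaling, with a filter at 1 FPKM (which drops Itgb7) or none, with 0.01 or 1 added before the log, with robust or untrended eBayes, with the replicate block, and with each sample left out. No member had an adjusted p under 0.05 in any of these. Over all genes, the number with an adjusted p under 0.05 went from 6 (without CD44-/- replicate 2) to 36 (without CD44+/+ replicate 1), with 7 without CD44+/+ replicate 2 and 22 without CD44-/- replicate 1. The count of members with an unadjusted p under 0.05 went from 0 (without CD44-/- replicate 2) to 2 (without CD44+/+ replicate 2), and that of ratios without overlap from 4 to 7 (without CD44+/+ replicate 3). The replicate block gave Mfge8 an adjusted p of 0.102 and changed no other adjusted call of a named gene, while more genes, Zyx, C1qb and Cxcr2 among them, then had an unadjusted p under 0.05. For the ratios, the block (exact sign flips of 3 pairs) cannot give a p below 0.25. Mfge8 also missed the threshold with no filter, quantile normalization, eBayes without a trend and 4 of the single-sample omissions, with adjusted p-values over all alternatives from 0.00929 to 0.422.

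Signs turned for these log2 changes among those recomputed, which were those of the members and of other genes printed with one. Itgal was -0.0129 with median-ratio scaling, -0.0161 with quantile normalization and -0.0170 to 0.0281 without single samples, and Tgfb1 was 0.000645 with quantile normalization and -0.0259 to 0.0206 without single samples. Median-ratio scaling gave -0.00744 for Tln1 and -0.00906 for Fermt3. With single samples left out, Itgam ran from -0.13 to 0.33, Itgb5 from -0.0834 to 0.0307, Tln1 from -0.0302 to 0.0668, Fermt3 from -0.0269 to 0.0504, Itga5 from -0.0309 to 0.00693 and Itgae from -0.34 to 0.20. The log2 difference of Itgax over Itgam then ran from -0.277 to 0.226, that of Itgb7 over Itgb1 from -0.549 to 0.0102, and those of the β shares of Itgb2 and Itgb1 from -0.0208 to 0.00467 and from -0.00232 to 0.0565. For Itgam and Itgb7, whose intervals are wide, changes of the size seen in Itga4 were not detectable.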
